A study of Mus musculus with 12 samples.

Results

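CD71-enriched bone marrow cells of mice carrying a CD70 transgene (CD70TG) were compared with those of wild-type mice (WT), in both cases with the gene for interferon-gamma intact. The samples were chosen by their genotype labels, and 6 of the 12 arrays of the series entered the comparison, 3 for each genotype. All mice were males of the C57BL/6 strain (C57BL/6J in the sample labels), 10 to 12 weeks old. Cells from the crushed bones of the hind legs were labelled with an antibody against CD71, the transferrin receptor that red cell precursors carry in large amounts, and pulled out with magnetic beads. Total RNA of each mouse went onto 1 Affymetrix whole-transcript array. The labels number the mice within a genotype, so each array is a separate animal and p-values measure the spread between mice. WT mice carried no transgene, and CD70TG mice came from 1 transgenic line, labelled clone F13, so that the transgene and anything else particular to this line cannot be told apart. The labels do not name the promoter that drives the transgene, and the line is generally known for expressing CD70 in B cells. The other 6 arrays, from Ifng-/- mice and from CD70TG*Ifng-/- mice (3 each, both without interferon-gamma), are used below to ask which differences were also seen without it. Ages, strain, sex and enrichment are the same in all 4 groups.

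CD70 is a ligand of the tumour necrosis factor family that appears briefly on activated lymphocytes and dendritic cells, and its receptor CD27 sits on T cells, some B cells and early blood progenitors. Constant CD70 signalling drives T cells to become effector cells that secrete interferon-gamma. That cytokine binds a receptor made of IFNGR1 and IFNGR2, the kinases JAK1 and JAK2 pass the signal on, and promoters of early target genes carry short palindromic DNA elements called GAS. One of the first targets encodes IRF1, which binds a second element, the ISRE, in the promoters of later genes. In the marrow, red cell precursors mature while attached to resident macrophages, which supply signals, take up expelled nuclei and recycle iron.

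All values are log2 array values relative to the gene's own median over the 12 arrays. Differences are CD70TG minus WT on the log2 scale with the standard error (SE) of the fitted difference from limma, and a gene was called at a Benjamini-Hochberg adjusted p under 0.05 over 19935 genes. Of these, 2179 genes (10.9%) were called: 1640 higher (8.23%) and 539 lower (2.7%) in CD70TG. The higher calls were more numerous but smaller. Their median difference was 0.40 against -0.50 for the lower calls, and at 2-fold or more there were 35 higher and 73 lower genes. At 4-fold or more the counts were 7 and 11. The share of calls that were higher, 75.3%, was 63.2% after quantile normalization and 65.4% with arrays centred within level classes. With 1 mouse left out, the number of calls was 853 (WT 1), 1366 (WT 3), 898 (CD70TG 1) or 975 (CD70TG 2).

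The rounding of the stored numbers sorts genes into 2747 brighter genes, with an original level of at least 8 on the log2 scale, and 17188 other genes. Brighter genes were called higher in 22.4% of cases and lower in 4.95%, with a median difference of 0.19, against 5.96%, 2.34% and -0.04 among the other genes. The median of the brighter genes lay between -0.14 and -0.06 in the WT arrays and was 0.14, 0.08 and -0.04 in CD70TG 1, 2 and 3. Counts of genes that are mostly bright are therefore read against 22.4% higher and 4.95% lower. Counts in the other lists are read against 8.23% higher and 2.7% lower, the shares of all genes. As a check of the enrichment, all 10 measured red cell markers were brighter genes, and 1 of them was called (Alas2, lower). All 11 macrophage markers were lower, as were 6 of 7 B cell markers, 2 of 8 neutrophil markers, 2 of 5 eosinophil markers and 1 of 8 T and NK cell markers. The macrophage set had a median of 0.67, 1.32 and 0.55 in the WT arrays and of -1.02, -0.92 and -0.51 in the CD70TG arrays. With bulk RNA of an enriched fraction, fewer cells of a type and less RNA per cell cannot be told apart.

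**Figure D1:**
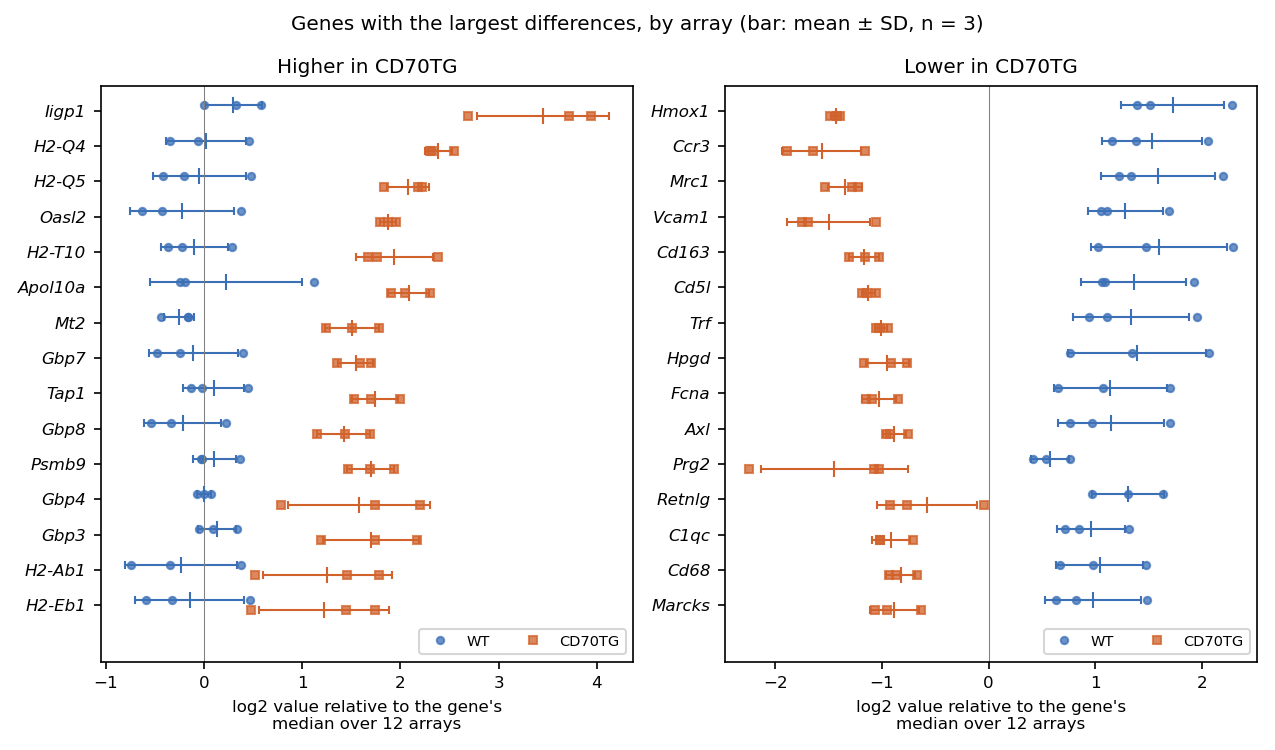
Array values of the 15 genes with the largest rise and the 15 with the largest fall, by the rule for named genes. Horizontal axes give the log2 value relative to the gene's median over 12 arrays, circles are the 3 WT mice, squares the 3 CD70TG mice, and bars show the mean ± SD. Absence of overlap between the genotypes was a condition for a gene to be shown and is no result. For Iigp1 the WT mice lie between -0.004 and 0.58 and the CD70TG mice between 2.68 and 3.94.

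Genes upstream of the interferon targets did not pass the test. Cd70 itself was -0.24, -0.38 and -0.12 in the WT arrays and 0.01, 0.05 and -0.01 in the CD70TG arrays, a difference of 0.26 ± 0.12 (SE) that was not called (adjusted p = 0.180), although the groups do not overlap. Cd27 (-0.01 ± 0.10, adjusted p = 0.965) and Ifng (-0.05 ± 0.09, adjusted p = 0.783) were not called either. Of 13 measured genes of interferon-gamma reception and its brakes, 0 were called by limma, with a median of 0.03. At an unadjusted p under 0.05, 3 of the 13 passed, as did 5237 of all genes. The count called was 1 without CD70TG 3 or Ifng-/- 1 and 2 without Ifng-/- 2. The nearest in this list were the transcription factor gene Stat3 (0.49 ± 0.16, adjusted p = 0.0577), and the kinase gene Jak2 (0.32 ± 0.11, adjusted p = 0.075). Ifngr1 was 0.03 ± 0.19 (adjusted p = 0.948). Socs1, a brake on JAK kinases, was -0.16 ± 0.12 (adjusted p = 0.431).

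Irf1, the first target in the chain, was -0.06, -0.01 and 0.15 in WT and 0.49, 0.95 and 0.94 in CD70TG. Every CD70TG mouse lay above every WT mouse, CD70TG 1 least so, and Irf1 rose by 0.77 ± 0.13 (adjusted p = 0.00284). Among the 11 interferon regulatory factors and their partners 1 other gene was called: Irf4, a factor of B cells and plasma cells, fell from 0.05, 0.31 and 0.10 to -0.40, -0.70 and -0.39 (-0.65 ± 0.12, adjusted p = 0.00402). Irf4 moved alongside the B cell genes described below.

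Promoters are shown for interferon genes that rose and held a match, because GAS and ISRE elements are textbook features of interferon-gamma target genes. Each line below gives the 250 bases before a listed transcription start, from RefSeq (GRCm38.p6), 5′ to 3′, with matches in capitals. Irf1 and Gbp3 have 2 listed starts each, and a window with a match is shown. GAS was searched as TTCNNNGAA and ISRE as GAAA, any 2 bases and GAAA, both on either strand.
Irf1 (chr11:53769764-53770013, plus strand): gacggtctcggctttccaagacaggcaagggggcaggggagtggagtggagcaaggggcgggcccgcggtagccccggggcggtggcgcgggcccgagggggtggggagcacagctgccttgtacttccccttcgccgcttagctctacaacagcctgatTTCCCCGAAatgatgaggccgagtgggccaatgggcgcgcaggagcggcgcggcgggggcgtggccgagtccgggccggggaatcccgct
Gbp7 (chr3:142530086-142530335, plus strand): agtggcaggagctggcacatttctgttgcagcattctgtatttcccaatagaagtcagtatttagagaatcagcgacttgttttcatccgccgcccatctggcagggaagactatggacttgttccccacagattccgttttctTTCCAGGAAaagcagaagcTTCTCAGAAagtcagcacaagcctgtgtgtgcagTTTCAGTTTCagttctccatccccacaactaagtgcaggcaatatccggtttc
Gbp3 (chr3:142559794-142560043, plus strand): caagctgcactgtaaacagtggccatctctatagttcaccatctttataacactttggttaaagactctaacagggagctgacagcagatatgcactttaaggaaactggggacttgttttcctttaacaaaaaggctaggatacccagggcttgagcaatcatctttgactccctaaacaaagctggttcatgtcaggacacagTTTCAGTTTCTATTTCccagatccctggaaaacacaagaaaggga
Cxcl10 (chr5:92348890-92349139, minus strand): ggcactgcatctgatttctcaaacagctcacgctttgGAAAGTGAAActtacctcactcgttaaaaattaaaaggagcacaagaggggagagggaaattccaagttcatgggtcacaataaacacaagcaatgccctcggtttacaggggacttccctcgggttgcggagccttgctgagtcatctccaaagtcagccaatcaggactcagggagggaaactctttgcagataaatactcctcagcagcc
B2m (chr2:122147437-122147686, plus strand): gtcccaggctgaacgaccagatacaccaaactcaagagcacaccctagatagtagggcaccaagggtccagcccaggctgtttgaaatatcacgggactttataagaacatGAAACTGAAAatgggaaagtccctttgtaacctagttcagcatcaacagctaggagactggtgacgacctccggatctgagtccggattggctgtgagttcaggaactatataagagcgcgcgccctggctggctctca
The Irf1 window holds 1 GAS match, 90 to 82 bases before the start. Gbp7, a guanylate-binding protein gene, holds GAS matches at 106 to 98 and 87 to 79 bases and an ISRE match at 53 to 44 bases. Gbp3 holds overlapping ISRE matches between 45 and 30 bases. The Cxcl10 match lies at 213 to 204 bases and that of B2m at 139 to 130 bases.

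Over all 15612 measured genes with a listed promoter, 7.71% had a GAS match and 3.4% an ISRE match. A gene with several listed starts counts if any window matches. Of the 25 genes with a promoter that rose at least 2-fold, 7 (28.0%) had an ISRE match and 4 (16.0%) a GAS match. Those with an ISRE match were Gm12250, Apol10a, Gbp7, Gbp3, Gm12185, Ddx60 and Cxcl10, and 4 of these (Gm12250, Apol10a, Gbp7 and Gm12185) also held GAS. Among all 1354 higher genes with a promoter the shares were 4.51% and 7.31%. Among the 54 genes that fell at least 2-fold they were 5.56% and 1.85%. Of 12 genes of class I peptide supply and loading with a promoter, 1 had an ISRE match and 1 a GAS match (8.33% each). Of 4 guanylate-binding protein genes with a promoter, 4 had an ISRE match and 2 a GAS match. These counts describe letters in a window and are no test.

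The guanylate-binding proteins, large GTPases that gather on the vacuoles of intracellular microbes, all rose. Gbp7 was -0.48, -0.24 and 0.39 in WT and 1.35, 1.70 and 1.59 in CD70TG, a rise of 1.66 ± 0.19 or 3.15-fold (adjusted p = 0.000117). Gbp8 rose by 1.64 ± 0.17, Gbp4 by 1.58 ± 0.24, Gbp3 by 1.57 ± 0.18 and Gbp2b by 0.68 ± 0.08. The other 3 members were Gbp5 (0.80), Gbp9 (0.67) and Gbp11 (0.49), so 8 of 8 measured genes were called higher, against 8.23% of all genes. No member was in the brighter class. The list's median was -0.07, -0.001 and 0.11 in the WT arrays and 0.68, 1.27 and 1.30 in the CD70TG arrays. CD70TG 1 was the lowest of the 3 transgenic mice for Gbp3, Gbp4, Gbp7 and Gbp8 and still lay above each WT mouse.

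The immunity-related GTPases, a second family with the same kind of task, held the largest rise of all. Iigp1 was -0.004, 0.33 and 0.58 in WT and 2.68, 3.94 and 3.72 in CD70TG. It was 8.86-fold higher (3.15 ± 0.24, adjusted p = 7.17e-06). Gm12250, another member of the family, was -0.45, 0.08 and 0.17 against 1.20, 2.22 and 2.43 (2.02 ± 0.24, adjusted p = 0.000187). Irgm1, the regulatory member, rose by 0.75 ± 0.15 (adjusted p = 0.00625). The family members Irgc1 (-0.07 ± 0.09) and Irgq (-0.05 ± 0.10), which are not known as interferon targets, were not called.

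Genes that supply, carry and load peptides for MHC class I rose as a group. Of 15 measured genes, 13 were called higher and 0 lower, with a median of 0.65 against -0.02 for all genes, and all 15 had CD70TG mice above all WT mice, as did 17.6% of all genes. The immunoproteasome subunit Psmb9 was -0.03, -0.02 and 0.36 in WT and 1.46, 1.69 and 1.94 in CD70TG (1.59 ± 0.14, adjusted p = 1.41e-05). Psmb10, a second catalytic subunit, went from 0.06 in each WT mouse to 0.76, 1.26 and 1.38 (1.07 ± 0.12, adjusted p = 0.000136). The activator subunit Psme1 rose by 0.84 ± 0.10. Tap1, which pumps peptides into the endoplasmic reticulum, rose by 1.65 ± 0.15, and Erap1, which trims them there, by 1.15 ± 0.13. Without WT 1, 8 of the 15 were called higher. B2m, the shared light chain, was -0.34, -0.06 and 0.57 in WT and 1.05, 1.04 and 0.93 in CD70TG. Its WT mice were the more scattered, and the rise was 0.95 ± 0.18 (adjusted p = 0.00462).

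Among the 14 class I heavy chain genes measured, the change was uneven: 4 rose, 1 fell and the median was 0.08. The classical chain genes H2-K1 and H2-D1 were not among the 14, so the counts do not cover them. H2-Q4, a nonclassical chain, was -0.34, -0.06 and 0.46 in WT and 2.32, 2.54 and 2.30 in CD70TG (2.37 ± 0.16, 5.16-fold, adjusted p = 1.65e-06). H2-Q5 rose by 2.12 ± 0.19 and H2-T10 by 2.04 ± 0.20. H2-M3, which presents formylated peptides, rose by 0.53 ± 0.14 and was not called with WT 1 (0.50), WT 2 (0.50) or CD70TG 2 (0.35) left out. H2-T24 fell by 0.39 ± 0.10, a call lost without WT 1 (-0.42) or WT 3 (-0.37). Heavy chain genes resemble each other closely, so probes can be shared among them and the split between members is uncertain. Among class II genes, which belong to antigen-presenting cells and for which no list was set, 3 chains were called higher at 2-fold or more. H2-Ab1 was -0.74, -0.34 and 0.38 in WT and 0.52, 1.45 and 1.79 in CD70TG (1.49 ± 0.29, adjusted p = 0.00566). H2-Eb1 rose by 1.37 ± 0.30, a call lost without WT 1 (1.15) or CD70TG 2 (1.26). The lowest CD70TG mouse exceeded the highest WT mouse by little in both. H2-Aa was -0.69, -0.28 and 0.59 in WT and 0.21, 1.18 and 1.60 in CD70TG (1.12 ± 0.34, adjusted p = 0.0482), and its groups overlap. The invariant chain gene Cd74 (0.51 ± 0.31, adjusted p = 0.314) and Ciita, which encodes the class II transactivator (0.10 ± 0.11, adjusted p = 0.600), were not called. Macrophage markers were lower in the same 3 mice, and their part in the class II values was not tested.

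Other interferon-inducible groups moved in part. Of 15 genes of ISG15 conjugation and interferon-induced ubiquitin ligases, 5 rose and 1 fell, with a median of 0.32, and 2 rose without WT 1 or without CD70TG 2. The rises were those of Parp14 (0.83 ± 0.15), Xaf1 (0.60), Uba7 (0.54 ± 0.09), the enzyme that activates ISG15, Parp9 (0.48) and Dtx3l (0.42). Xaf1 and Parp9 lost their call without WT 1 (0.53 and 0.41) or CD70TG 2 (0.52 and 0.38), and Xaf1 also without CD70TG 1 (0.59). Ube2l6, the conjugating enzyme of the same pathway and a brighter gene, fell instead: it was 0.01, 0.23 and 0.09 in WT and -0.34, -0.26 and -0.57 in CD70TG (-0.50 ± 0.09, adjusted p = 0.0047).

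Of 25 sensors and effectors of foreign nucleic acid 5 rose, with a median of 0.05, and 3 rose without WT 1 or without CD70TG 2. Oasl2 was -0.63, -0.43 and 0.38 in WT and 1.79, 1.95 and 1.87 in CD70TG (2.10 ± 0.20, 4.28-fold, adjusted p = 3.7e-05). Zbp1, a sensor of left-handed nucleic acid that can trigger necroptosis, rose by 1.22 ± 0.15, and Cgas, the sensor of cytosolic DNA, by 0.67 ± 0.11. Samhd1 (0.53) and Oas2 (0.41) were called with all arrays and were not called without WT 1 (0.43 and 0.38), WT 2 (0.53 and 0.36) or CD70TG 2 (0.43 and 0.29), and Oas2 also without CD70TG*Ifng-/- 3 (0.41). The other 20 members did not pass the test.

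Effectors of cell death and checkpoint genes were among those that rose. Mlkl, the executioner of necroptosis, was -0.29, -0.14 and 0.10 in WT and 0.58, 0.80 and 0.95 in CD70TG (0.89 ± 0.13, adjusted p = 0.00104). Cd274, which encodes the T cell inhibitory ligand PD-L1, rose by 0.86 ± 0.14 (adjusted p = 0.00172). Wars, the tryptophanyl-tRNA synthetase that interferon-gamma induces, rose by 0.76 ± 0.11. Of 16 genes of this list 3 rose and 1 fell, the oxidase subunit gene Cyba (-0.77 ± 0.23, adjusted p = 0.0456). The Cyba call was lost without any one of WT 1, 2 and 3 or CD70TG 1 and 2, among others.

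Of 36 chemokine genes 3 were called higher, a share near the 8.23% of all genes, 1 was called lower and 32 were not called, with a median of -0.09. Those called higher include Cxcl9 and Cxcl10, ligands of the receptor CXCR3 on activated T cells. Cxcl11, which encodes the other ligand of that receptor, was not called (-0.14 ± 0.07, adjusted p = 0.244). Cxcl9 was 0.03, 0.06 and 0.25 in WT and 0.91, 1.56 and 1.87 in CD70TG (1.33 ± 0.17, adjusted p = 0.000326). Cxcl10 was -0.31, 0.15 and 0.03 against 0.71, 1.31 and 1.30 (1.15 ± 0.15, adjusted p = 0.000321). Ccl8 rose by 0.44 ± 0.09. Ccl6, a chemokine of myeloid cells, fell from 0.84, 1.01 and 0.82 to -0.80, -0.39 and -0.34 (-1.40 ± 0.24, adjusted p = 0.00317). The lower calls numbered 3 without Ifng-/- 1 and 2 without Ifng-/- 2. Of 29 chemokine receptors 0 rose and 3 fell: Ccr3, the eotaxin receptor (-3.10 ± 0.20), Cxcr2 (-1.45 ± 0.35) and Ccr9 (-0.42 ± 0.10). The Cxcr2 call was lost without WT 1, 2 or 3 or CD70TG 1 (-1.54 to -1.33), and that of Ccr9 without WT 1, WT 2, CD70TG 1 or CD70TG 2 (-0.42 to -0.38). Lower receptor genes numbered 1 without WT 1, WT 2 or CD70TG 1, 2 without WT 3 or CD70TG 2, and 5 without Ifng-/- 1 or Ifng-/- 2.

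**Figure D2:**
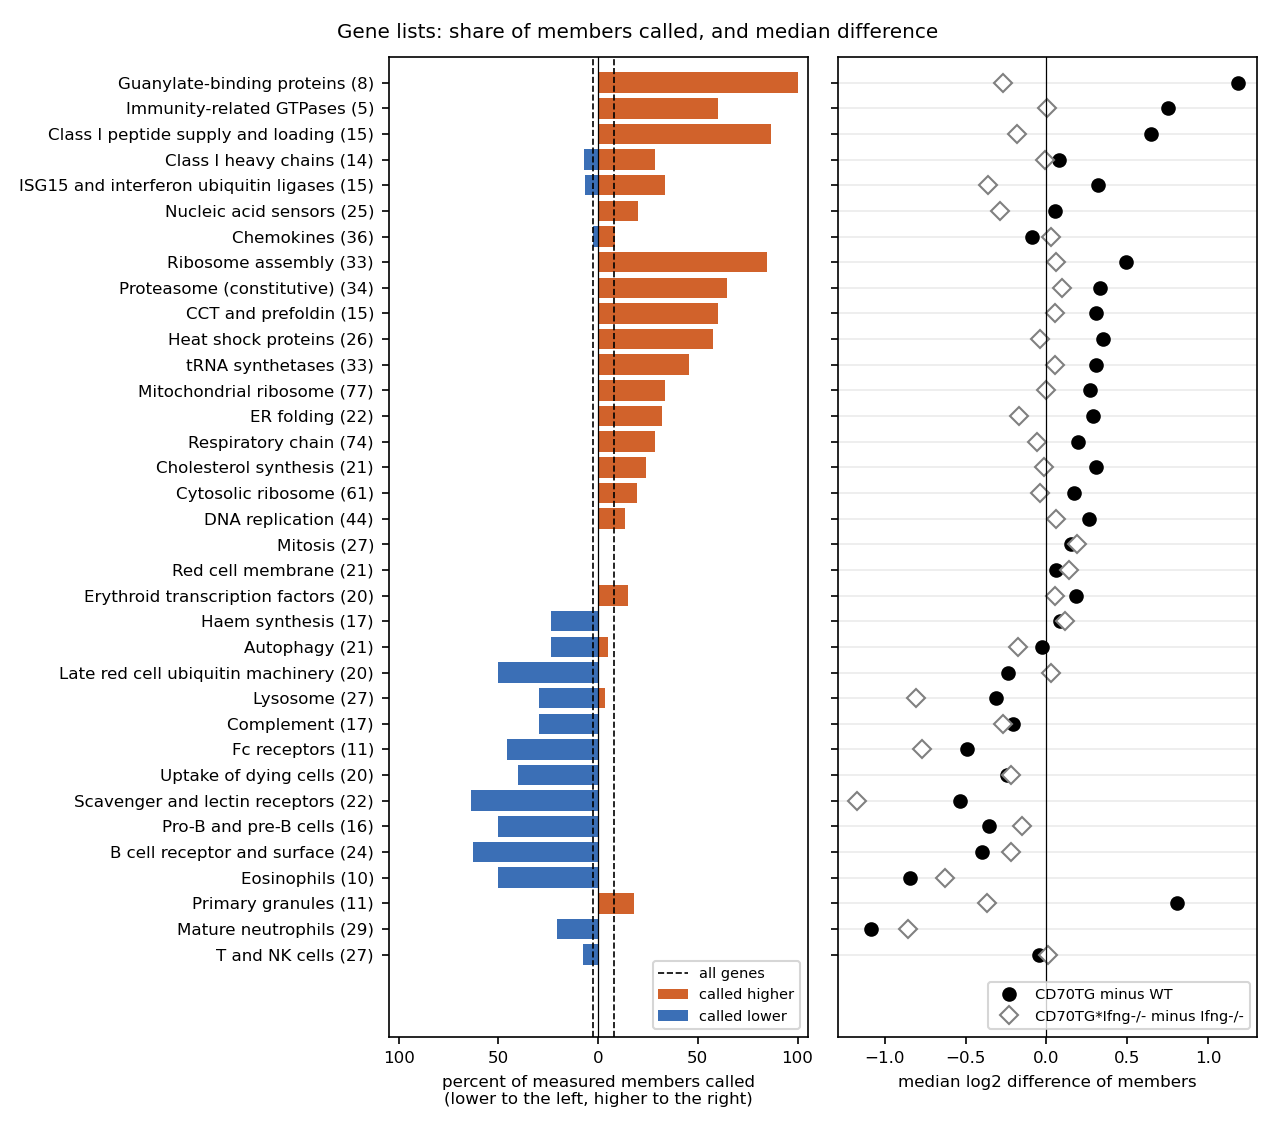
Share of measured members called (left, percent of members, lower calls to the left of 0 and higher calls to the right) and median log2 difference of members (right) for 35 gene lists, with the number of measured members in brackets. Dashed lines give the share of all genes called, 2.7% lower and 8.23% higher. Filled circles are CD70TG minus WT and open diamonds CD70TG*Ifng-/- minus Ifng-/-. The ribosome assembly list has a median of 0.49 with interferon-gamma and 0.06 without it, and the scavenger receptor list -0.54 and -1.17.

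Genes for making and folding proteins rose, as did the progenitor regulator Myc. Myc, a transcription factor that drives growth and ribosome production, was -0.77, -0.49 and -0.45 in WT and 0.32, 0.60 and 1.12 in CD70TG. It was 2.38-fold higher (1.25 ± 0.17, adjusted p = 0.000467), with CD70TG 3 the highest and no overlap. Cdk6, a kinase of early G1 phase, went from -0.20, -0.18 and -0.14 to 0.50, 0.46 and 1.02 (0.83 ± 0.15, adjusted p = 0.00327). Of 21 progenitor regulators these were the 2 that rose, a share near the 8.23% of all genes. Meis1 fell (-0.29 ± 0.08, adjusted p = 0.0284), against 2.7% of all genes lower. The Meis1 call was lost without WT 1, WT 2, CD70TG 2 or CD70TG 3 (-0.29 to -0.24) and with centring within level classes (-0.27). The list's median was -0.05.

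Nucleolar ribosome assembly genes rose in large number. Of 33 measured genes 28 were called higher and 0 lower, against 8.23% of all genes, and the median was 0.49. Only 9 of the 33 were brighter genes, so 5.96% is the nearer background. The list's median was -0.31, -0.15 and -0.19 in the WT arrays and 0.23, 0.18 and 0.37 in the CD70TG arrays. In 31 of 33 genes all CD70TG mice lay above all WT mice, as in 17.6% of all genes. Among brighter genes this held for 1196 of 2747, and among the others for 2318 of 17188. Centring within level classes left 25 called and quantile normalization 27. Without WT 1 the count was 15 and without CD70TG 1 it was 18.

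Among its members, Mybbp1a, a nucleolar protein that binds MYB, was -0.49, -0.36 and -0.27 in WT and 0.31, 0.34 and 0.65 in CD70TG (0.81 ± 0.12, adjusted p = 0.000963). Wdr43, a component of the small-subunit processome, rose by 0.83 ± 0.13, and Brix1 and Wdr12, which act in large-subunit assembly, by 0.67 ± 0.10 and 0.62 ± 0.10. Nop2, a methyltransferase of ribosomal RNA, rose by 0.53 ± 0.08 (adjusted p = 0.00173). In each of these 5 genes the highest WT mouse lay below the lowest CD70TG mouse. Wdr43 had the largest rise of the list.

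The aminoacyl-tRNA synthetases, which charge tRNAs with amino acids, had 15 of 33 genes higher (45.5%) and 0 lower, with a median of 0.31. Of the 33, 14 were brighter genes, a class with 22.4% called higher, against 5.96% of other genes. Farsa was -0.38, -0.25 and -0.32 in WT and 0.21, 0.29 and 0.23 in CD70TG (0.56 ± 0.08, adjusted p = 0.00125). Qars (0.70 ± 0.12), Kars (0.63 ± 0.10) and Yars2 (0.59 ± 0.10) followed Wars in size. The count was 7 when WT 1 was left out, 8 for CD70TG 1 and 9 for CD70TG 2. Of 77 mitochondrial ribosomal proteins 26 rose (33.8%, against 8.23% of all genes) and 0 fell (median 0.27), and 13 of the 77 were brighter genes. Mrpl38 (0.49 ± 0.10) and Mrps17 (0.40 ± 0.08) were among the 26. That count was less stable: 4 without WT 1, 13 without WT 2 or WT 3, 3 without CD70TG 1 and 7 without CD70TG 2, 19 with centring within level classes and 15 after quantile normalization. Of 61 cytosolic ribosomal proteins, 48 of them brighter genes, 12 rose (19.7% of members against 22.4% of brighter genes), so their share was near the background. The median of this list was 0.17, and 0.01 with centring within level classes, which left 4 called, against 5 after quantile normalization. The count was 5 to 7 with any 1 of the 6 mice left out.

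Heat shock proteins rose in both cytosol and mitochondria. Hsph1, a nucleotide exchange factor of HSP70, was -1.20, -0.78 and -0.94 in WT and -0.02, 0.17 and 0.25 in CD70TG (1.10 ± 0.16, 2.15-fold, adjusted p = 0.00096). Hspd1, the mitochondrial chaperonin HSP60, was -0.34, -0.12 and -0.51 against 0.23, 0.27 and 0.94 (0.80 ± 0.15), and its cochaperonin Hspe1 rose by 0.73 ± 0.11. The mitochondrial HSP70 gene Hspa9 rose by 0.80 ± 0.12 and the HSP90 activator Ahsa1 by 0.50 ± 0.09. In all, 15 of 26 members rose (57.7%, against 22.4% of brighter genes) and 0 fell (median 0.35), and 16 of the 26 were brighter genes. The count was 9 with centring within level classes, 8 without WT 1 and 9 without CD70TG 1 or CD70TG 2.

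Hspd1 is shown with its heat shock element because such elements, bound by the factor HSF1, are the known switch of this family. The window is again the 250 bases before a listed start (RefSeq, GRCm38.p6). Hspd1 has 2 listed starts, and a window with a match is shown. The element was searched as GAA, any 2 bases, TTC, any 2 bases and GAA on either strand.
Hspd1 (chr1:55087933-55088182, minus strand): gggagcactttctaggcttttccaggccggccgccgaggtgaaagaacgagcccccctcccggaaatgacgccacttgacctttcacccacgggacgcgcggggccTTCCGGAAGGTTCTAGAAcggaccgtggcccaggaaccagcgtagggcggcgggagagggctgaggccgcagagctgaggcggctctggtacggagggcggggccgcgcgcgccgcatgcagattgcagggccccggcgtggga
Overlapping matches on both strands fill positions 144 to 127 before the start. Of 22 heat shock genes with a promoter 3 (13.6%) had such a match, against 0.442% of all 15612 genes. The E-box CACGTG, which MYC can bind, was in 1 of 28 ribosome assembly promoters (3.57%) and in 8.11% of all.

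Other folding and degradation machines rose with smaller differences. The CCT chaperonin and prefoldin, which fold actin and tubulin, had 9 of 15 genes higher and 0 lower, with a median of 0.31. Of the 15, 10 were brighter genes, and the share of 60.0% compares with 22.4% of brighter genes. Cct6a was -0.47, -0.16 and -0.42 in WT and 0.18, 0.23 and 0.58 in CD70TG (0.68 ± 0.12, adjusted p = 0.00294), Cct2 rose by 0.54 ± 0.10 and Tcp1 by 0.46 ± 0.08. The count was 5 with centring within level classes and 5 without WT 1, WT 3 or CD70TG 2. The constitutive proteasome had 22 of 34 genes higher (64.7%, against 22.4% of brighter genes), and 32 of the 34 were brighter genes. Psmb2 was -0.20, -0.19 and -0.29 in WT and 0.35, 0.44 and 0.45 in CD70TG (0.64 ± 0.09, adjusted p = 0.000579), and Psma5 rose by 0.62 ± 0.11. The proteasome count depended on the scaling: 12 after quantile normalization and 7 higher and 1 lower with centring within level classes, where the median of 0.33 became 0.17. Leaving out a mouse gave 9 (WT 1, CD70TG 2), 12 (WT 3) or 8 (CD70TG 1).

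Respiratory chain and ATP synthase subunits had 21 of 74 genes higher and 0 lower (28.4% of members, of which 49 were brighter genes, against 22.4% of brighter genes). That count was 8 higher and 2 lower with centring within level classes, 12 after quantile normalization, and 8, 10, 8, 4 and 8 without WT 1, WT 2, WT 3, CD70TG 1 and CD70TG 2. Endoplasmic reticulum folding genes, 10 of 22 brighter, had 7 higher (31.8%, against 8.23% of all genes and 22.4% of brighter genes), with a median of 0.29. P4hb (0.53 ± 0.13), Hyou1 (0.52 ± 0.13) and Manf (0.28 ± 0.07) were among them. The count was 0 without WT 1, 3 without WT 3, CD70TG 1 or CD70TG 2, and 2 without CD70TG 3. With centring within level classes 4 rose. Serine synthesis and amino acid uptake were represented by Psat1 (0.68 ± 0.10, adjusted p = 0.00139) and Slc38a2 (0.58 ± 0.10, adjusted p = 0.00337) among 5 of 22 ATF4 targets and one-carbon genes that rose, and 2 rose without WT 1. Of the 22, 7 were brighter genes, and the share of 22.7% compares with 8.23% of all genes and 22.4% of brighter genes. Of 21 genes of cholesterol synthesis and uptake 5 rose (23.8%, against 8.23% of all genes), led by Fdps, which makes farnesyl diphosphate (-0.15, -0.12 and -0.13 in WT, 0.38, 0.36 and 0.53 in CD70TG, 0.56 ± 0.07, adjusted p = 0.000475), and Ebp (0.56 ± 0.10). The cholesterol count was 2 without WT 1 or CD70TG 1, 3 without WT 3, CD70TG 2 or CD70TG*Ifng-/- 3, 10 without CD70TG 3, 11 without CD70TG 3 and Ifng-/- 2 together, and 3 after quantile normalization or centring within level classes.

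Cell cycle genes had small positive differences and few calls. Of 44 genes of DNA replication, 37 of them brighter genes, 6 rose (13.6% against 22.4% of brighter genes), with a median of 0.27. Rfc3 (0.42 ± 0.10), a subunit of the clamp loader, was among the 6. The medians of this list were -0.18, -0.11 and -0.14 in WT and 0.22, 0.08 and -0.06 in CD70TG, so that CD70TG 3 stood below its mates. The count was 0 without WT 1, CD70TG 1 or CD70TG 2, 2 without WT 2, Ifng-/- 3 or CD70TG*Ifng-/- 3, 1 without WT 3, 14 without CD70TG 3, 11 without Ifng-/- 1, 13 without Ifng-/- 2, 27 without CD70TG 3 and Ifng-/- 2 together, 2 with centring within level classes and 1 after quantile normalization. Of 27 mitosis genes 0 were called by limma (4 at an unadjusted p under 0.05), with a median of 0.15, and -0.02 with centring within level classes, where 1 fell. Mitosis genes called higher numbered 4 without CD70TG 3, 1 without Ifng-/- 1, 2 without Ifng-/- 2, and 9 without both CD70TG 3 and Ifng-/- 2.

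**Figure D3:**
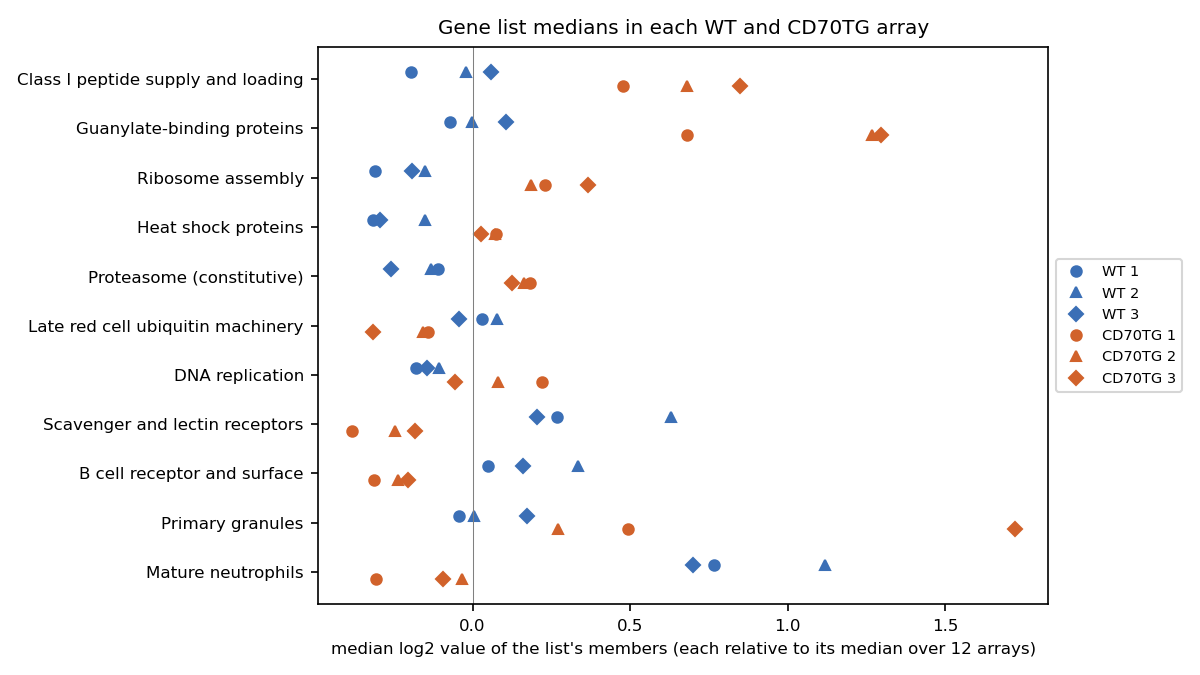
Median log2 value of the members of 11 gene lists in each WT mouse (blue) and CD70TG mouse (orange); circles, triangles and diamonds are mice 1, 2 and 3. Ribosome assembly separates the genotypes (-0.31 to -0.15 in WT, 0.18 to 0.37 in CD70TG), and the primary granule list has CD70TG 3 at 1.72 with its mates at 0.49 and 0.27.

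Few erythroid transcription factor or membrane skeleton genes were called. Gata1 (0.18 ± 0.10, adjusted p = 0.247), Klf1 (0.17 ± 0.09, adjusted p = 0.272), the erythropoietin receptor gene Epor (0.11 ± 0.12, adjusted p = 0.611) and Tfrc, which encodes CD71 itself (-0.02 ± 0.08, adjusted p = 0.902), were not called. Of 20 transcription factors 3 rose, Nfia (0.40), Ldb1 (0.40) and Zbtb7a (0.45), and with centring within level classes 2 rose and 4 fell, while 1 rose after quantile normalization. Their calls were lost without WT 1, 1 gene rose without CD70TG 1 or CD70TG 2, 5 without CD70TG 3, and 6 without CD70TG 3 and Ifng-/- 2 together. Of 21 membrane skeleton and blood group genes, 18 of them brighter, 0 were called by limma (1 at an unadjusted p under 0.05), with a median of 0.06, 2 fell with centring within level classes and 1 rose without CD70TG 3.

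Genes of the last steps before and after loss of the nucleus fell. Of 20 genes of the ubiquitin and nuclear extrusion machinery of maturing red cells, all brighter genes, 10 fell and 0 rose, against 4.95% of brighter genes lower. Ube2o, the ligase that clears ribosomes from reticulocytes, was 0.12, 0.19 and 0.19 in WT and -0.54, -0.43 and -0.73 in CD70TG (-0.73 ± 0.10, adjusted p = 0.000534). Rnf10 was 0.14, 0.14 and 0.16 in WT and -0.48, -0.39 and -0.60 in CD70TG (-0.64 ± 0.08, adjusted p = 0.000255). Ube2b (-0.90 ± 0.13), Rnf11 (-0.71 ± 0.08) and Ube2r2 (-0.62 ± 0.10) fell as well. The remaining 5 (Ube2h, Fbxo9, Trim10, Usp15 and Fbxo30) fell by 0.29 to 0.50. The list's median was 0.03, 0.08 and -0.04 in WT and -0.14, -0.16 and -0.32 in CD70TG, and with centring within level classes 13 of the 20 fell.

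Some haem and metabolic enzymes of red cell precursors fell. Slc25a39, a mitochondrial carrier needed for haem, was 0.25, 0.33 and 0.22 in WT and -0.42, -0.39 and -0.49 in CD70TG (-0.70 ± 0.08, adjusted p = 8.5e-05). Alas2, the first enzyme of erythroid haem synthesis, fell by 0.43 ± 0.08 (adjusted p = 0.00393) and Fech, the last, by 0.47 ± 0.09 (adjusted p = 0.00503). With Tspo2 (-0.38 ± 0.11, a call lost in most settings with 1 mouse fewer) they were 4 of 17 genes lower and 0 higher. Of the 17, 14 were brighter genes, a class with 4.95% called lower, and the list's median was 0.08. Haem synthesis genes called higher numbered 4 without CD70TG 3, 1 without Ifng-/- 1, 2 without Ifng-/- 2, and 7 (with 3 lower) with CD70TG 3 and Ifng-/- 2 both left out. Bpgm, which makes the ligand that lowers the oxygen affinity of haemoglobin, fell from 0.17, 0.18 and 0.06 to -0.48, -0.45 and -0.59 (-0.65 ± 0.08, adjusted p = 0.000151). Catalase (Cat) fell by 0.72 ± 0.09 and the iron-sulphur scaffold Iscu by 0.79 ± 0.08 (adjusted p = 8.5e-05). Bpgm and Cat belong to a list of 20 red cell enzymes, 17 of them brighter genes, of which 4 fell and 1 rose (median 0.04). Iscu was the 1 gene that fell among 16 erythroid iron genes, of which 4 rose (median 0.10). Of the 16, 10 were brighter genes, a class with 22.4% called higher and 4.95% lower, so both counts were near the background. With 1 array left out the number that rose was as low as 1. With centring within level classes 7 of the enzymes fell and 0 rose, and 3 of the iron genes fell and 1 rose. The 5 measured globin genes were Hba-x, Hbb-bh1, Hbb-y, Hbq1a and Hbq1b, without the adult alpha and beta chain genes. Of these 5, 3 fell, against 2.7% of all genes: Hbq1a (-0.64 ± 0.14), Hbq1b (-0.48 ± 0.11) and Hbb-bh1 (-0.33 ± 0.09). All 3 lost the call without WT 1 (-0.57, -0.46 and -0.31), and Hbb-bh1 also without WT 3 (-0.28) or CD70TG 1 (-0.26).

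Of 21 autophagy and mitophagy genes 5 fell and 1 rose, with a median of -0.03. Bnip3l, the receptor that marks reticulocyte mitochondria for removal, was 0.12, 0.20 and 0.04 in WT and -0.50, -0.37 and -0.55 in CD70TG (-0.59 ± 0.09, adjusted p = 0.0012). The autophagosome proteins Gabarapl2 (-0.57 ± 0.10) and Map1lc3b (-0.40 ± 0.08) fell too. Atg5, which acts in forming the autophagosome, was the gene that rose (0.31 ± 0.08), a call lost without WT 1, WT 3, CD70TG 1 or CD70TG 2 (0.29 to 0.30). The count of 5 was 3 without WT 1 or WT 2, and 3 genes rose without CD70TG 3. With CD70TG 3 and Ifng-/- 2 both left out 4 rose and 5 fell, and the median was 0.05. Bcl2l1, which encodes the survival protein BCL-XL of late precursors, fell by 0.50 ± 0.08 (adjusted p = 0.00206). Among other brighter genes, Pttg1, which encodes securin, fell from 0.26, 0.28 and 0.18 to -0.68, -0.61 and -0.85 (-0.95 ± 0.08, adjusted p = 9.19e-06), and Riok3, a kinase tied to late red cell maturation, by 0.93 ± 0.08 (adjusted p = 1.67e-05).

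Genes of resident macrophages were among the largest falls of the comparison, beside the eosinophil gene Ccr3 described below. Hmox1, the enzyme that opens the haem ring, was 1.51, 2.28 and 1.39 in WT and -1.42, -1.49 and -1.39 in CD70TG, which is 8.93-fold lower (-3.16 ± 0.17, adjusted p = 5.72e-07). Vcam1, the adhesion molecule by which macrophages hold red cell precursors, was 1.05, 1.69 and 1.11 against -1.70, -1.75 and -1.05 (-2.78 ± 0.18, adjusted p = 1.65e-06). Spic, the transcription factor of iron-recycling macrophages, fell by 1.67 ± 0.13 and Hpgd, a prostaglandin-degrading enzyme, by 2.34 ± 0.23. WT 2 was the highest mouse for each of these 4 genes. Of 17 identity genes of macrophages and related myeloid cells, Ccr2, Cx3cr1 and Batf3 among them, 8 fell and 0 rose. That compares with 2.7% of all genes lower, and the list's median was -0.35.

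Receptors for what macrophages take up fell in greater number. Of 22 scavenger and lectin receptors 14 fell and 0 rose (median -0.54), and 8 fell without CD70TG 1. Mrc1, the mannose receptor, was 1.33, 2.20 and 1.22 in WT and -1.28, -1.53 and -1.22 in CD70TG (-2.93 ± 0.19, 7.61-fold, adjusted p = 1.65e-06). Cd163, the haemoglobin receptor, fell by 2.76 ± 0.23, and Cd5l (-2.49 ± 0.19), the lectin gene Fcna (-2.17 ± 0.19) and Siglec1 (-1.12 ± 0.10) fell too. For the uptake of dying cells and expelled nuclei, the kinase receptors Axl (0.76, 1.71 and 0.97 in WT, -0.93, -0.96 and -0.76 in CD70TG, -2.03 ± 0.18) and Mertk (-1.44 ± 0.19) fell with the integrin chain Itgb5 (-0.89 ± 0.11), the receptor Lrp1 (-0.78 ± 0.11) and the phosphatidylserine receptor Timd4 (-0.61 ± 0.10), 8 of 20 in all. Of 17 complement genes 5 fell. C1qc was 0.85, 1.32 and 0.71 in WT and -1.02, -1.02 and -0.71 in CD70TG (-1.88 ± 0.14, adjusted p = 7.17e-06), and Cfp (-1.80), C1qa (-1.66), C1qb (-1.66) and Vsig4 (-0.68) were the others. Of 11 Fc receptor genes 5 fell, among them Fcer1g (-1.20 ± 0.21) and Fcgr1 (-0.65 ± 0.14).

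Iron recycling genes fell with them. Of 19 genes of haem breakdown, iron export and storage 7 fell and 0 rose. Slc40a1, which encodes the iron exporter ferroportin, was 0.30, 0.93 and 0.47 in WT and -0.38, -0.69 and -0.83 in CD70TG (-1.20 ± 0.14, adjusted p = 0.000157), and Trf, the serum iron carrier, fell by 2.35 ± 0.19. Ncoa4, which delivers ferritin for degradation and is also used by red cell precursors, was 0.05, 0.13 and 0.04 against -0.61, -0.68 and -0.80 (-0.77 ± 0.08, adjusted p = 5.76e-05). The ferritin light chain gene Ftl1 fell by 0.54 ± 0.08. Lipid genes of the same cells, such as the lipase Lpl (-1.75 ± 0.17), Apoe (-1.52 ± 0.17), the nuclear receptor Pparg (-1.07 ± 0.15) and the cholesterol exporter Abca1 (-0.85 ± 0.09), were among 6 of 15 that fell. Which cells in the fraction carried each of these RNAs was not tested.

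Lysosomal enzymes and Toll-like receptors had more modest falls. Of 27 lysosomal genes 8 fell and 1 rose (Gusb, 0.40 ± 0.11, a call lost without WT 1, WT 2 or CD70TG 3). Lipa (-1.21 ± 0.20) and Lgmn (-1.16 ± 0.18) led the falls. The count of lower genes was 3 without WT 2, 5 without WT 3, 2 without CD70TG 1, 3 without CD70TG 2 and 5 without Ifng-/- 3 or CD70TG*Ifng-/- 3. Of 22 Toll-like receptors and adaptors 7 fell, including Tlr7 (-0.91 ± 0.14, adjusted p = 0.00112), Tlr4 (-0.82 ± 0.14) and Tlr13 (-0.81 ± 0.16), and 4 fell without CD70TG 1 or CD70TG 2. The adaptor Myd88, itself an interferon target, went the other way, from -0.31, 0.02 and -0.02 to 0.36, 0.38 and 0.42 (0.49 ± 0.10, adjusted p = 0.00605).

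Genes of B cells were lower, both early and surface genes. Of 16 pro-B and pre-B cell genes 8 fell and 0 rose (4 without CD70TG 2), and of 24 B cell receptor and surface genes 15 fell and 0 rose (9 without CD70TG 1). Cd79a, a signalling chain of the B cell receptor, was 0.12, 0.52 and 0.54 in WT and -1.33, -1.08 and -1.01 in CD70TG (-1.53 ± 0.15, 2.90-fold, adjusted p = 4.61e-05). The surrogate light chain gene Vpreb3 was 0.18, 0.76 and 0.33 against -0.36, -0.55 and -0.39 (-0.86 ± 0.12, adjusted p = 0.00063), Blnk fell by 0.84 ± 0.14, Pax5 by 0.49 ± 0.09 and Il7r by 0.69 ± 0.13. The surface genes Bank1 (-0.89 ± 0.11), Cd79b (-1.31 ± 0.17) and Ms4a1 (-1.10 ± 0.16) fell as well.

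Granulocyte genes differed by maturity and by mouse. Of 11 primary granule genes, made by the earliest neutrophil precursors, 2 rose: Prtn3 (-0.10, -0.27 and 0.09 in WT, 0.67, 0.52 and 1.77 in CD70TG, 1.08 ± 0.28) and Ms4a3 (1.02 ± 0.30). CD70TG 3 held the highest value of both, and without it neither passed (0.69 and 0.57). Both calls were also lost without WT 1 (1.08 and 0.95) or WT 2 (0.99 and 1.05), and that of Ms4a3 without WT 3 (1.07), Ifng-/- 3 or CD70TG*Ifng-/- 3 (1.02 in each). The list's median was -0.04, 0.004 and 0.17 in WT and 0.49, 0.27 and 1.72 in CD70TG. Of 29 genes of secondary granules and mature neutrophils 6 fell, among them Retnlg (1.31, 1.64 and 0.97 in WT, -0.77, -0.04 and -0.92 in CD70TG, -1.88 ± 0.46) and S100a9 (-1.72 ± 0.46). In 25 of the 29 all CD70TG mice lay below all WT mice, as in 13.5% of all genes. The count of 6 was 0 without WT 1, WT 2 or CD70TG 1, 1 without WT 3, 2 without CD70TG 2, 3 without CD70TG*Ifng-/- 3, 24 without Ifng-/- 1 and 22 without Ifng-/- 2. It was 21 without CD70TG 3 and Ifng-/- 2 together. After quantile normalization 5 of the 11 primary granule genes rose, as without Ifng-/- 1 or Ifng-/- 2, and 14 of the 29 late genes fell.

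Eosinophil genes fell as well. Ccr3 was 1.38, 2.06 and 1.16 in WT and -1.16, -1.65 and -1.89 in CD70TG, 8.56-fold lower (adjusted p = 1.65e-06). Prg2, the major basic protein of eosinophil granules, was 0.54, 0.76 and 0.41 against -2.24, -1.03 and -1.07 (-2.02 ± 0.39, adjusted p = 0.00569), with CD70TG 1 the lowest. Ear6 (-1.81 ± 0.35), Alox15 (-1.10 ± 0.26) and Prg3 (-0.66 ± 0.16) completed 5 of 10 genes called, and 3 remained without CD70TG 1 or CD70TG 2. Of 15 basophil and mast cell genes 0 were called by limma (3 at an unadjusted p under 0.05), with a median of -0.07, and of 27 T and NK cell genes 2 were called, both lower: the coreceptor gene Cd4 (-0.52 ± 0.09) and the NK receptor gene Klrc1 (-0.42 ± 0.09).

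Metal handling gave 1 further large rise. Mt2, a metallothionein that binds zinc and copper, was -0.16, -0.16 and -0.43 in WT and 1.239, 1.503 and 1.783 in CD70TG (1.76 ± 0.14, 3.39-fold, adjusted p = 9.34e-06). Its relative Mt1 rose by 0.55 ± 0.12, a call lost without WT 1 (0.48). Of 29 metallothionein and zinc transport genes 5 rose (17.2%, against 8.23% of all genes), and the median was -0.01. The count was 1 without WT 1 and 3 without WT 3, CD70TG 1 or CD70TG 2, as after quantile normalization.

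The rises and the falls differed in whether they were also seen without interferon-gamma. In CD70TG*Ifng-/- against Ifng-/- mice, 31 genes were called higher (0.156%) and 468 lower (2.35%). This comparison shares no array with CD70TG against WT. Both came from the same fit, however, and used the same variance estimate for each gene, so their calls are not independent. Leaving out Ifng-/- 1 or Ifng-/- 3 changed the lower calls in CD70TG against WT from 539 to 713 or 477. Of the 1640 genes higher in CD70TG, 4 were also higher without interferon-gamma, which is 0.244% of the first list and 12.9% of the second. These were Dnajc10, Ndrg2, Psmd14 and Tank, named after their values were seen. Of the 539 lower genes 219 were also lower without interferon-gamma, 40.6% of the first list and 46.8% of the second. At 2-fold or more, 0 of 35 higher genes and 59 of 73 lower genes were called in the same direction in both. At an unadjusted p under 0.05, 1 of the 35 were higher without interferon-gamma.

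The interaction, the CD70TG effect with interferon-gamma minus that without it, tests the difference itself. It was called for 377 genes (1.89%), 321 positive (1.61%) and 56 negative (0.281%), and for 253 of the 1640 higher genes with a positive sign. Of the 35 genes that rose at least 2-fold, 30 had a called positive interaction. The interaction contains the CD70TG minus WT difference by which the 1640 and the 35 genes were chosen. The choice itself therefore favours a positive sign, and the counts of 253 and 30 are descriptions. For Iigp1 the effect was 3.15 with and 0.04 without interferon-gamma (interaction 3.11 ± 0.34, adjusted p = 0.000818), and for Myc 1.25 and -0.13 (1.38, adjusted p = 0.0119). For Hsph1 it was 1.10 and -0.36 (1.46, adjusted p = 0.00727), for Mt2 1.76 and 0.38 (1.39, adjusted p = 0.0052) and for Psat1 0.68 and -0.27 (0.95, adjusted p = 0.00727). Gbp8, Oasl2, B2m and H2-Ab1 were higher in CD70TG and lower in CD70TG*Ifng-/- than in their controls (1.64 and -1.04, 2.10 and -0.89, 0.95 and -0.88, 1.49 and -1.36). The ribosome assembly list had 0 members called by limma without interferon-gamma (median 0.06, 2 at an unadjusted p under 0.05), and 4 of its 33 members had a called interaction, among them Mybbp1a (0.73), Wdr12 (0.58) and Nop2 (0.52). For the other 29 the difference did not pass.

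**Figure D4:**
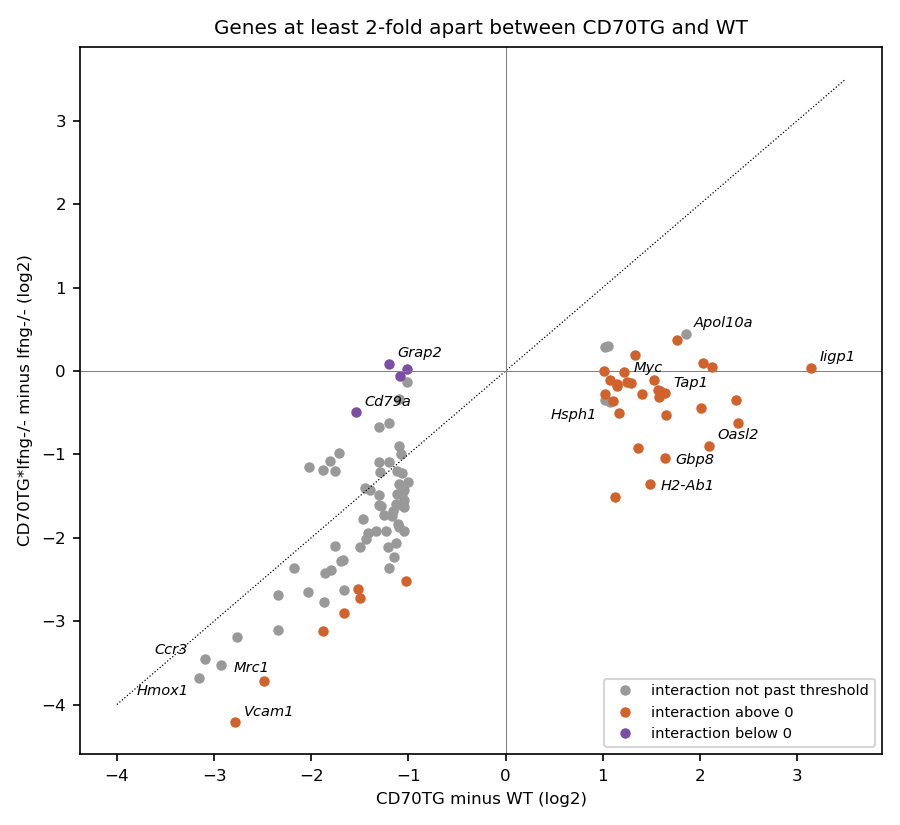
The 108 genes that differed at least 2-fold between CD70TG and WT, with the log2 difference CD70TG minus WT on the horizontal axis and CD70TG*Ifng-/- minus Ifng-/- on the vertical axis. The dotted line marks equal differences, and colours give whether the interaction passed its threshold and its sign. The 35 higher genes all lie below the dotted line, a position favoured by their choice on the horizontal axis. The lower genes lie on both sides of it and reach down to Hmox1 (-3.16 and -3.68) and Vcam1 (-2.78 and -4.21).

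For the lower genes the interaction seldom passed, which does not show that the effects were equal. Hmox1 (-3.16 with and -3.68 without interferon-gamma), Mrc1 (-2.93 and -3.53), Cd163 (-2.76 and -3.19), Ccr3 (-3.10 and -3.45) and Slc40a1 (-1.20 and -1.09) had interactions between -0.11 and 0.60, none called. Vcam1 (1.43, adjusted p = 0.018), C1qc (1.25, adjusted p = 0.00955), Cd5l (1.23, adjusted p = 0.0388) and Apoe (1.09, adjusted p = 0.0379) fell more without interferon-gamma. They belong to 12 genes called lower with a positive interaction.

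A further 41 lower genes had a negative interaction, meaning a larger fall with interferon-gamma. Here too the choice of genes by their fall in CD70TG against WT favours this sign. Grap2, an adaptor of T cell receptor and growth factor signalling and here a brighter gene, was -0.11, -0.01 and 0.02 in WT and -0.89, -1.09 and -1.70 in CD70TG (-1.20 ± 0.15), against 0.09 without interferon-gamma (interaction -1.28, adjusted p = 0.011). The late red cell genes Riok3 (-0.93 and -0.23, interaction -0.70), Ube2b (-0.90 and 0.04, -0.94), Rnf11 (-0.71 and -0.17, -0.54), Bpgm (-0.65 and -0.19, -0.46) and Ncoa4 (-0.77 and -0.21, -0.56) were among them, as were Pttg1 (-0.95 and -0.29, -0.67) and the growth arrest gene Gadd45a (-0.54 and 0.25, -0.79). Of the B cell genes Cd79a (-1.53 and -0.49, -1.04) and Vpreb3 (-0.86 and -0.15, -0.71) had a called interaction, whereas Bank1 (-0.89 and -0.93) fell in both. The count of 377 interactions was 82 without WT 1, 210 without WT 3, 233, 88 and 226 without CD70TG 1, 2 and 3, 180 without Ifng-/- 3, and 711, 85 and 94 without CD70TG*Ifng-/- 1, 2 and 3.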

How the data were processed

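Total RNA from CD71-enriched marrow cells of 12 mice was measured on Affymetrix whole-transcript arrays. The deposited values are log2 values made by the authors with RMA, per the submitters' processing notes. Its version is not given in the sources used here. The log base is that of RMA and is not stated. Each probe set is centred on its median over the 12 arrays, so levels cannot be compared between genes. How the centring was done is not given in the sources used here. Arrays give no count depth, and the number of mice limits the precision.

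Of 28815 probe sets 21780 carry 1 gene symbol, 1605 several and 5430 none in the platform annotation. Only those with 1 symbol were used, 998 of 19935 genes being averages of several probe sets. The step at which stored numbers were rounded gave the level class: 4377 probe sets (15.2%) had a level of 8 or more. As a check, the brighter class held 48 of 61 genes for cytosolic ribosomal proteins and 1 of 1015 for olfactory receptors.

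Means of 4 groups were fitted with limma 3.58.1 (R 4.3.3), with 8 residual and 6.23 prior degrees of freedom, and p-values were adjusted by Benjamini-Hochberg over 19935 genes. The code was tested on simulated data. The members and gene lists were chosen with earlier results of these data known. The genes named are 10 fixed genes, the 15 largest rises and 15 largest falls without overlap between groups, up to 5 genes per list with the smallest p, and the 5 positive and 5 negative smallest interaction p-values among genes past both thresholds. Genes named to complete a small count, and those with promoter matches, were chosen after their values were seen. Alternatives were 3 other scalings, robust and weighted fits, a replicate block, the 6 arrays alone, brighter genes alone, single probe sets and each array left out. Promoters came from RefSeq tables.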

Additional observations from a re-analysis of the deposited data

Results flagged for a closer look

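The results below differed between mice with and without interferon-gamma by a test of the difference itself, the limma interaction with Benjamini-Hochberg adjustment over 19935 genes. Each value is the log2 effect of CD70TG with interferon-gamma minus that without it.

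Among interferon targets the largest interactions were those of Iigp1 (3.11), Oasl2 (2.99), H2-Ab1 (2.85), H2-Q4 (2.72), Gbp8 (2.68), H2-Aa (2.63), Gm12250 (2.46), H2-Eb1 (2.29), Gbp7 (2.18), H2-Q5 (2.08) and H2-T10 (1.94), of the genes named in the text. Peptide supply genes and the class II invariant chain gene Cd74 (1.85) followed, with Tap1 (1.91), Psmb9 (1.83), B2m (1.82), Erap1 (1.33), Psmb10 (1.17) and Psme1 (1.13). Further GTPases were Gbp4 (1.90), Gbp3 (1.80), Irgm1 (1.29), Gbp5 (1.12) and Gbp2b (0.68). Regulators, sensors and conjugating enzymes were Ddx60 (1.67), Gm12185 (1.64), Parp14 (1.37), Zbp1 (1.23), Xaf1 (1.08), Samhd1 (0.99), Stat3 (0.95), Irf1 (0.91), Parp9 (0.82), Myd88 (0.81), Dtx3l (0.80), Cgas (0.79), Oas2 (0.79) and Uba7 (0.65). Chemokines and effectors were Cxcl10 (1.31), Cxcl9 (1.14), Mlkl (1.13), Cd274 (0.91), Casp8 (0.80), Wars (0.76), Tnfsf10 (0.70), Ccl8 (0.58) and Gsdmd (0.42).

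Among growth, folding and metabolic genes the values were Hsph1 (1.46), Mt2 (1.39), Myc (1.38), Psat1 (0.95), P4hb (0.85), Hspe1 (0.77), Mybbp1a (0.73), Qars (0.71), Ebp (0.70), Ahsa1 (0.69), Psmb2 (0.68), Mrpl38 (0.65), Slc38a2 (0.64), Wdr12 (0.58), Fdps (0.52), Nop2 (0.52), Farsa (0.50) and Atg5 (0.49). Stat3 was not called in CD70TG against WT.

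The macrophage genes Vcam1 (1.43), C1qb (1.25), C1qc (1.25), Cd5l (1.23) and Apoe (1.09) fell in both comparisons, more so without interferon-gamma. Negative interactions, a larger fall with interferon-gamma, were those of Grap2 (-1.28), Cd79a (-1.04), Ube2b (-0.94), Gadd45a (-0.79), Vpreb3 (-0.71), Riok3 (-0.70), Pttg1 (-0.67), Hbq1b (-0.63), Ncoa4 (-0.56), Rnf11 (-0.54) and Bpgm (-0.46).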

How the results depend on the processing

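Of the 244 named genes called in CD70TG against WT, 0 reversed, 154 kept the call in every alternative run, 157 with each mouse left out and 205 in the 3 other scalings. Leaving out 1 of the 12 arrays gave 853 to 2721 calls in all (511 to 2017 higher, 303 to 713 lower) and 82 to 711 interactions. Quantile normalization left 1005 higher genes. Array weights gave 5337 calls (3448 higher, 1889 lower) and 2040 interactions. Brighter genes alone, with fewer genes tested, gave 1135 calls (956 higher, 179 lower). Leaving out CD70TG 3 and Ifng-/- 2, which stood farthest from their group mates and were chosen after seeing the data, gave 3686 calls (2669 higher, 1017 lower) and 175 interactions. The cause of these moves was not tested. Replicate numbers gave no clear sign of pairing, which deviations from means of 3 arrays cannot exclude. WT and CD70TG mice of the same number had deviations correlated at -0.01 to 0.17, against -0.18 to 0.13 for other numbers. Over all groups the same-number range was -0.40 to 0.31. With the replicate block 128 interactions and 1668 genes (1231 higher, 437 lower) were called, and 224 of the 244 kept their call. Centred values did not allow a filter on dim probes by mean level. The interaction cannot be fitted with 6 arrays.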

Other observations

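Genes of programmed cell death rose more often than they fell. Of 26 measured genes 6 were called higher and 1 lower (Bcl2l1, described with the late red cell genes), against 8.23% and 2.7% of all genes, and the median was 0.12. Besides Mlkl, the death ligand gene Tnfsf10 was -0.004, 0.20 and 0.07 in WT and 0.42, 0.84 and 0.66 in CD70TG (0.55 ± 0.11, limma adjusted p = 0.00687). Gsdmd, which encodes the pore-forming protein of pyroptosis, was -0.01, -0.01 and 0.04 against 0.34, 0.36 and 0.34 (0.34 ± 0.07, adjusted p = 0.0063). The mitochondrial pore gene Bak1 rose by 0.58 ± 0.11, Casp8, the initiator of receptor-driven apoptosis, by 0.41 ± 0.11 and Bid, which Casp8 cleaves, by 0.35 ± 0.09. In each of Tnfsf10, Gsdmd, Bak1, Casp8 and Bid every CD70TG mouse lay above every WT mouse, as in 17.6% of all genes.

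Immediate early genes, which respond to stimuli and to cell handling, were called in 3 of 25 cases, all lower (12.0%, against 2.7% of all genes). The count was 1 without WT 1, 2 or 3, 0 without CD70TG 1, 2 without CD70TG 2, and 5 without Ifng-/- 1. The 3 genes were Zfp36 (-0.85 ± 0.23), Dusp6 (-0.73 ± 0.16) and Jund (-0.29 ± 0.07). The Zfp36 call was lost without WT 1, 2 or 3 or CD70TG 1 or 2 (-0.97 to -0.72), that of Dusp6 without CD70TG 1 (-0.68), and that of Jund without WT 1, 2 or 3 or CD70TG 1 or 3 (-0.30 to -0.25).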
